A study of Mus musculus with 272 samples.

Results

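The Tcl1 family in these data comprised 6 genes, Tcl1 and Tcl1b1 to Tcl1b5, which were all the symbols beginning with Tcl1 among the 15854 gene symbols of the deposited table. The study measured RNA in mouse oocytes and preimplantation embryos at 8 stages: germinal vesicle (GV) oocytes, which are immature, metaphase II (MII) oocytes, which are mature and unfertilized, zygotes, 2-cell, 4-cell and 8-cell embryos, morulae and blastocysts. At each stage 4 pools of 20 oocytes or embryos gave whole transcriptomes, and 3 lysates of about 100 oocytes or embryos were each spun through a sucrose gradient and cut into 10 fractions, which made 32 transcriptomes and 240 fraction libraries. The labels describe no mutation and no treatment beyond cycloheximide in the lysis buffer and gradient, an agent that holds ribosomes on their transcripts, and they name no strain. The family was selected on measured values, the steep fall of Tcl1b4 in the later fractions of the gradients between the 2-cell and 4-cell stages, so every value of that step in the gradients is given here as a description, without a test. At other gradient comparisons that involve 2-cell or 4-cell embryos Tcl1b4 is likewise only described and the other 5 genes are tested. Over the means of stages and fractions these 5 genes followed Tcl1b4 closely (Pearson's r 0.925 to 0.964). Their tests at those comparisons are therefore not independent of the choice.

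TCL1 proteins are small proteins without a known enzymatic activity of their own that bind the kinase Akt and promote its activation. Tcl1 takes its name from T-cell leukaemia, in which its human counterpart is switched on by chromosomal rearrangement, and in the mouse it is also known as a maternal transcript of oocytes and cleavage embryos. The Tcl1b genes are its close relatives in the same gene cluster, expanded in the mouse and known mainly from oocytes and early embryos. A sucrose gradient separates RNA by the mass bound to it, and a transcript loaded with many ribosomes sediments further than a free one.

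All 6 genes lie side by side on chromosome 12, in the order Tcl1b2, Tcl1b1, Tcl1b5, Tcl1b3, Tcl1b4 and Tcl1 in RefSeq, with 0 other annotated genes between them. The 100 bases before each annotated start are shown here because all 6 members fell in the transcriptome from 2-cell to 4-cell embryos. They are from RefSeq on GRCm38.p6, read 5′ to 3′ on the strand of the gene, and capitals mark each E-box, CANNTG, a motif that reads the same pattern on both strands.
Tcl1 (chr12:105222738-105222837, minus strand): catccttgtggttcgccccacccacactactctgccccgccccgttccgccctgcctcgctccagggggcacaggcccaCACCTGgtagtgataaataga
Tcl1b1 (chr12:105159604-105159703, plus strand): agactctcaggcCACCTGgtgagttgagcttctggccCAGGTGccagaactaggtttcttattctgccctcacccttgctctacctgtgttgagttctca
Tcl1b2 (chr12:105146919-105147018, plus strand): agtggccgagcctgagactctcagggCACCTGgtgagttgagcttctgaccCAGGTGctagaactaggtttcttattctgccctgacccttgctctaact
Tcl1b3 (chr12:105190945-105191044, plus strand): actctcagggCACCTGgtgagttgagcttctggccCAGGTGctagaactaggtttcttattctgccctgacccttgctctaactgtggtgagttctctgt
Tcl1b4 (chr12:105202295-105202394, plus strand): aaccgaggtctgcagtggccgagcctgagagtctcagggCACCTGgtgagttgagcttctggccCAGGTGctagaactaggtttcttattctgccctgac
Tcl1b5 (chr12:105176244-105176343, plus strand): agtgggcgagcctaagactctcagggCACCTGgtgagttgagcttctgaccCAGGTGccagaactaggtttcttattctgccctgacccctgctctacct
Each of the 5 Tcl1b windows held a pair of E-boxes, CACCTG and its reverse complement CAGGTG, and the Tcl1 window held 1. Over the full RefSeq windows of 300 bases (250 before the start and 50 after it), 6 of 6 members held CACCTG on either strand, against 20.2% of 32851 promoters, and 6 of 6 held CANNTG, against 72.3%. GGGCGG, a GC box searched on both strands, was in 1 member, Tcl1, and in 35.7% of all promoters. The TATA motif TATAAA and the homeobox motif GGATTA, also searched on both strands, were in 0 of the 6 members, against 13.6% and 7.06% of all promoters. The longest run found in all 5 Tcl1b windows had 25 bases, gtggtgtccaaaataattccctgaa, and it was in those 5 promoters alone among the 32851. Identity of the 250 bases before the start ran from 55.0% to 89.4% among the 10 pairs of Tcl1b genes and from 47.8% to 49.5% between Tcl1 and a Tcl1b gene. The Tcl1b windows are related sequences, so they are not separate cases in the motif counts above. The motifs were also chosen after members' values were seen, so these counts are a description and not a test.

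The annotated transcripts had 4 exons each and 1398 bases for Tcl1 against 1009 to 1055 for the Tcl1b genes. The Tcl1b transcripts were 82.2% to 91.5% identical to one another and 49.0% to 50.8% identical to Tcl1. These identities, like those before the start, are over global alignments, and no unrelated pair was aligned beside them. The values with Tcl1 therefore do not by themselves measure relatedness. Of all windows of 150 bases, the read length, 3.84% of those of Tcl1b2 and 3.68% of those of Tcl1b3 were shared exactly between these genes, and 0 of those of the other 4 members occurred in another gene. How the authors' counting treated reads that match several places is not given in the sources used here, so the split between Tcl1b2 and Tcl1b3 is the least certain. The 3′ ends are shown for the polyadenylation signal, in capitals, since the length of poly(A) tails is regulated in oocytes and the labels give the measured molecule as polyA RNA.
Tcl1: agatacggctggatttAATAAAgctttgta
Tcl1b2: aacttgttttaaagtaATTAAActttactg
Tcl1b3: aacttgtttttaactaATTAAActttattg
Tcl1b4: aacttgtttttaactaATTAAActttactg
Tcl1b1 and Tcl1b5 had the same 30 bases as Tcl1b4. Tcl1 carried AATAAA, the signal of 65.3% of 17490 coding transcripts in their last 100 bases, and the 5 Tcl1b genes carried the variant ATTAAA, found in 20.4%. Cytoplasmic polyadenylation elements (CPEs) are U-rich motifs near that signal. Of the 4 forms searched in the last 100 bases on the transcript's strand (TTTTAT or TTTTAAT or TTTTACT or TTTTCAT), Tcl1 held TTTTAT, which starts 37 bases before its signal. The 5 Tcl1b genes held TTTTACT, which starts 15 bases after the start of theirs. Any of the 4 forms occurred in 21.6% of the 17490 transcripts, and TTTTACT in 2.02%.

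Values are in CPM, a gene's share of the reads of its library, in which 10000 CPM are 1% of the reads, and changes are differences of log2(CPM + 1), a scale that understates the change of low values. A change passed the test when limma's Benjamini-Hochberg adjusted p over all genes was under 0.05 and its size was at least 1 on the log2 scale. The share of genes printed beside a count belongs to this test. Counts of members under other settings come without such a share, so they show only whether a call held. How many of all genes had groups without overlap was not counted, so statements on overlap only describe the members. Transcriptomes held 11231458 to 24263239 reads and fractions 10243 to 43212237, and all 288 pairs of replicates differed by more than sampling noise (chi-square per degree of freedom at least 2.55). Nothing in the labels says that pools of a stage came from separate animals, so p-values measure the spread between these pools and gradients. Oocyte markers (7 of 7 in the table, such as Zp3 and Gdf9) summed to 18097.5 to 20765 CPM in GV transcriptomes and to 49.7 to 63.0 in 4-cell transcriptomes, and blastocyst markers (8 of 8) to 2496 to 3054 in blastocysts. Krt8 and Krt18 had the highest means of these 8 there, 1219 and 886 CPM. Gata3 and Gata6 set that stage apart less. Gata3 had means of 90.8, 107 and 156 CPM in MII oocytes, zygotes and blastocysts, and Gata6 had 167 and 195 in morulae and blastocysts. The 2-cell markers (6 of 6) summed to 1633 to 2256 CPM in 2-cell transcriptomes and to at most 58.0 at any other stage. Among them Tdpoz4 did not set the 2-cell stage apart, with means of 31.8, 34.2 and 27.7 CPM in 2-cell, 4-cell and 8-cell embryos. Of 9 cumulus and granulosa markers 3 were in the table, with sums of 39.4 to 68.9 CPM in GV oocytes, MII oocytes and zygotes, 5.60 to 12.9 in 2-cell embryos and at most 0.227 from the 4-cell stage on. Nearly all of this was Cyp19a1, with means of 38.0, 62.7 and 53.8 CPM in the first 3 stages, while Inha and Fshr had means of at most 1.40 and 2.45 CPM at any stage. Of 5 lymphocyte markers 2 were in the table, at no more than 4.47 CPM in any transcriptome. The part of other cells in the levels below was not tested.

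The 6 transcripts together were among the most abundant of the oocyte and of the early embryo. Their sum was 8584 to 8921 CPM in the 4 GV pools, 16843 to 20658 in MII oocytes, 17322 to 20889 in zygotes and 25777 to 32475 in 2-cell embryos. It then stood at 22.8 to 37.6 CPM in 4-cell embryos, 10.965 to 15.7 in 8-cell embryos, 6.63 to 10.7 in morulae and 4.87 to 10.6 in blastocysts. The GV, MII and 2-cell pools did not overlap, those of MII oocytes and zygotes did, and the drop after the 2-cell stage set all later pools far below all earlier ones. The mean 2-cell sum, 28589 CPM ± 2806 (SD, n = 4), was 2.86% of the reads, more than any single symbol of the table held there. From 2-cell to 4-cell embryos the mean sum fell 904-fold. In bulk pools less RNA per cell and fewer cells that hold the RNA cannot be told apart.

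Tcl1 took 55.5% ± 1.49 (SD, n = 4) of the family's reads in GV oocytes, 59.4% ± 1.72 in MII oocytes, 52.2% ± 1.69 in zygotes and 46.5% ± 4.19 in 2-cell embryos. In MII oocytes and in zygotes it ranked 4 by mean CPM among 15771 symbols, in 2-cell embryos 5 and in GV oocytes 20. Divided by transcript length, the order of the mean levels in 2-cell embryos was Tcl1 (9576 CPM per kb), Tcl1b1 (6063), Tcl1b2 (3324), Tcl1b3 (2860), Tcl1b4 (1928) and Tcl1b5 (537), and the same order held in GV oocytes, MII oocytes and zygotes. The family thus ran over a wide range, with Tcl1b5 the lowest member at each of these stages. The pools of Tcl1b2 and Tcl1b3, 3134 to 3572 and 2709 to 3245 CPM in 2-cell embryos, overlapped before division by length, and those of the other neighbours in that order did not.

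**Figure D1:**
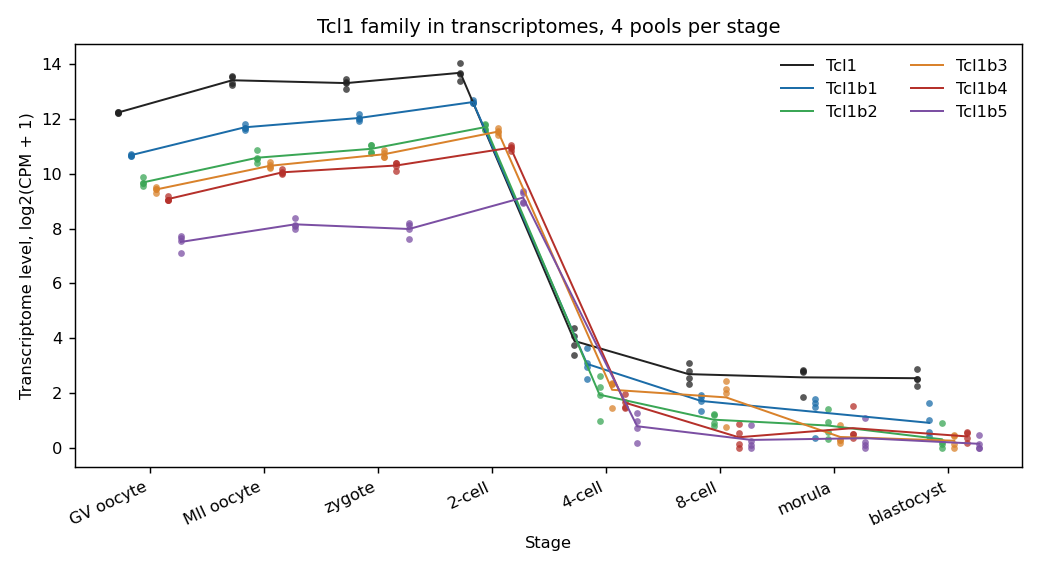
Transcriptome level of each of the 6 genes, as log2(CPM + 1), over the 8 stages; points are pools (4 per stage) and lines join stage means. The MII and zygote means of all 6 genes sit between the GV and 2-cell means, and the step from the 2-cell to the 4-cell stage spans -8.35 to -9.79 on this scale.

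From GV to MII oocytes all 6 genes had a higher mean, and for each of the 6 the 4 MII pools lay above the 4 GV pools. Tcl1 held 4935, 4762, 4792 and 4855 CPM in GV pools A to D and 11737, 9756, 12318 and 10159 in the MII pools. Its log2 change was 1.18 (SE 0.19, limma adjusted p 2.08e-06). Tcl1b1 rose 2.03-fold, from 1639 CPM ± 40.4 in GV oocytes to 3331 ± 207 in MII oocytes (SD, n = 4 each). Its log2 change was 1.02 (limma adjusted p 0.000231), and the call was lost without replicate C and with quantile normalization. Thus 2 of 6 members passed the test upward, against 9.11% of 14642 genes tested. The other 4 had changes of 0.64 to 0.97, under the minimum size, and edgeR and DESeq2 on recovered reads called 5 of the 6 genes higher. CPM is a share of a library's RNA, so a higher share in MII oocytes does not show that more molecules were present.

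From MII oocytes to zygotes 0 of 6 members passed limma's test, against 10.3% of genes in either direction. None had an unadjusted p under 0.05, edgeR and DESeq2 also called 0, and the changes ran from -0.17 to 0.42. From zygotes to 2-cell embryos 1 of 6 members passed upward, against 25.2% of genes. This was Tcl1b5, the least abundant member, with 254, 281, 196 and 292 CPM in zygote pools A to D and 658, 496, 628 and 484 in the 2-cell pools. Its change was 1.15 (SE 0.23, limma adjusted p 5.18e-05), and it was not called by edgeR, by DESeq2 or with a pseudocount of 0.1. For Tcl1b1, Tcl1b2, Tcl1b3 and Tcl1b4 the 2-cell pools also lay above all zygote pools, with ratios of means of 1.495 to 1.77, whereas those of Tcl1 overlapped.

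Between the 2-cell and 4-cell stages, a period in which many maternal transcripts are cleared and the embryo's own genome is active, 6 of 6 members fell in the transcriptome, against 32.9% of genes. Tcl1 held 16846, 12668, 13219 and 10817 CPM in the 2-cell pools and 9.54, 15.8, 19.5 and 12.6 in the 4-cell pools A to D, a 932-fold fall of the mean (change -9.79, SE 0.19, limma adjusted p 9.18e-31). Tcl1b2 fell the most among the 6 by ratio of means, 1066-fold, and Tcl1b5 the least, 723-fold. Tcl1b4 held 2019, 2133, 1846 and 1954 CPM and then 1.75, 2.19, 2.89 and 1.82 (change -9.31, SE 0.19, limma adjusted p 2.42e-30). The 15 alternatives that included this step, edgeR and DESeq2 among them, each called all 6 genes. These libraries are separate from the gradients on which the family was selected, but the pools came from the same batches of oocytes and embryos, so the fall here is not independent of that choice.

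After the 4-cell stage low levels went on declining for some members. From 4-cell to 8-cell embryos 3 of 6 members fell, against 2.14% of genes: Tcl1 to 4.04 to 7.51 CPM (change -1.21, SE 0.19, limma adjusted p 0.000136), Tcl1b1 to 1.56 to 2.77 CPM (change -1.35, adjusted p 0.000300) and Tcl1b4 to 0 to 0.812 CPM (change -1.27, adjusted p 7.92e-05). For these 3 genes the 4-cell and 8-cell pools did not overlap. From 8-cell embryos to morulae 1 of 6 members fell, against 3.70% of genes. This was Tcl1b3, at 3.43, 4.47, 2.97 and 0.693 CPM in 8-cell pools A to D and 0.203, 0.119, 0.796 and 0.227 in the morula pools (change -1.44, SE 0.23, limma adjusted p 7.37e-06). The groups overlap through 8-cell pool D and morula pool C, and in a fit of those stages alone the gene was below the filter and was not tested. From morulae to blastocysts 0 of 6 members passed limma's test, against 26.8% of genes, with 1 unadjusted p under 0.05. There edgeR called 3 members lower and DESeq2 2. Tcl1 was the most abundant member at the end, with 3.81 to 6.41 CPM in blastocysts, 74.7% ± 11.4 (SD, n = 4) of the family's reads.

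Along the gradients the family's position changed with stage. In GV oocytes the sum of the 6 genes was spread over all 10 fractions and peaked in fraction 5 or 6, at 27547, 22389 and 31103 CPM in gradients A, B and C. In MII oocytes it was lowest in fraction 1 or 2, at 606 to 1240 CPM, and peaked in fraction 10, 9 and 8, at 21433, 30027 and 16086 CPM. Zygotes also peaked in fraction 10, 9 and 8, at 12257, 15293 and 15559 CPM, and were lowest in fraction 3 or 4, at 1892 to 2440 CPM. In 2-cell embryos the peaks were in fraction 7, 8 and 7, at 60544, 88978 and 54406 CPM. Fraction 8 of 2-cell gradient B thus held 8.90% of its reads in these 6 genes, the highest share among the 240 fraction libraries. Each fraction is scaled to its own total, so these profiles compare shares of RNA within fractions and not amounts of RNA.

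**Figure D2:**
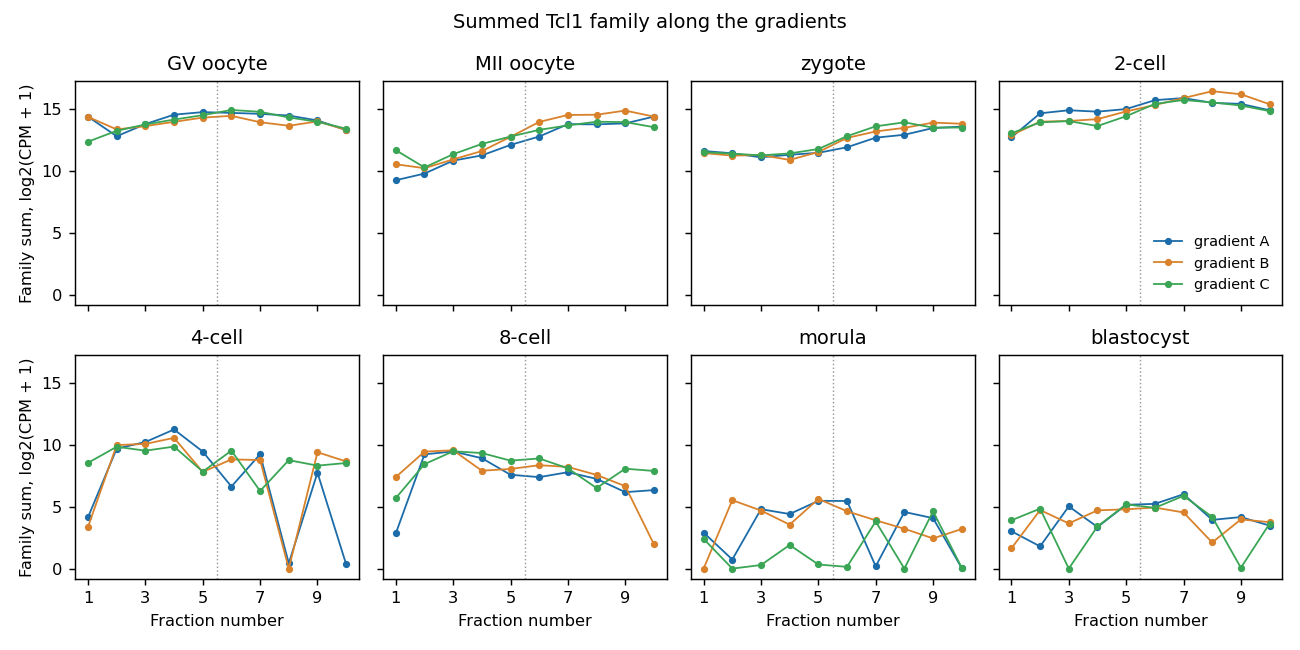
Sum of the 6 genes in each of the 10 fractions, as log2(CPM + 1), for the 3 gradients of each stage; the dotted line divides fractions 1 to 5 from 6 to 10. The profiles are broad in GV oocytes, rise toward the heavy end in MII oocytes and zygotes, peak in fraction 7 or 8 in 2-cell embryos, and lie lower, with single fractions at or near 0, from the 4-cell stage on.

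The CPM-weighted mean fraction of the sum was 5.61 ± 0.33 in GV oocytes (SD, n = 3 gradients), where the median of all genes was 5.82. It was 7.54 ± 0.39 in MII oocytes (all genes 5.57), 7.24 ± 0.15 in zygotes (5.497) and 6.65 ± 0.40 in 2-cell embryos (5.12). The gradients of MII oocytes, 7.10 to 7.85, and those of GV oocytes, 5.33 to 5.97, did not overlap. Among the 6 genes the means ran from 7.44 to 7.88 in MII oocytes, 6.48 to 7.39 in zygotes and 6.54 to 6.79 in 2-cell embryos. In 4-cell and 8-cell embryos the sum's mean fraction was 4.59 ± 0.39 and 4.49 ± 0.50, against 4.69 and 5.56 for all genes. There the genes spread further, from 2.67 (Tcl1b5) to 5.14 (Tcl1b1) in 4-cell embryos and from 3.11 (Tcl1b4) to 4.88 (Tcl1b1) in 8-cell embryos, with 0 reads in many fractions.

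Fractions 6 to 10 were averaged in each gradient as its heavy side and fractions 1 to 5 as its light side. In GV oocytes the family was present at high levels on both sides. Tcl1 held 10515, 8442 and 9834 CPM on the heavy side of gradients A to C and 10956, 10557 and 8380 on the light side. The heavy-light differences ran from -0.05 to 0.63, and 0 of 6 members passed limma's test, against 0.0725% of 15172 genes in either direction. None had an unadjusted p under 0.05, and edgeR called 0.

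In MII oocytes all 6 transcripts were higher on the heavy side of each of the 3 gradients. Tcl1 held 9153, 16787 and 8269 CPM on the heavy side and 1485, 2198 and 2344 on the light side (difference 2.46, SE 0.44, limma adjusted p 0.000344). The same side was higher for Tcl1b3 (difference 2.68, adjusted p 0.0330) and Tcl1b5 (2.62, adjusted p 0.00836). So 3 of 6 members passed toward the heavy side, against 1.71% of genes, and Tcl1b1, Tcl1b2 and Tcl1b4 had differences of similar size with adjusted p-values of 0.0663 to 0.0966. With the gradient as a replicate block Tcl1b4 passed as well, all 6 passed with quantile normalization, with fractions 8 to 10 against 1 to 3 and in a fit of MII oocytes alone, and edgeR called Tcl1 alone. Without replicate B, 0 of the 6 passed, and the call of Tcl1b3 was also lost without replicate C and that of Tcl1b5 without replicate A.

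In zygotes 1 of 6 members, Tcl1, passed toward the heavy side, against 2.14% of genes, at 5849, 8261 and 7647 CPM against 1801, 1758 and 1820 (difference 2.00, SE 0.44, limma adjusted p 0.00530). The Tcl1b genes had differences of 1.32 to 2.11. In 2-cell embryos 1 of the 5 members tested passed, again Tcl1, against 6.43% of genes, at 22074, 34279 and 19883 CPM against 12958, 9731 and 7391 (difference 1.34, SE 0.44, limma adjusted p 0.0272). The zygote and 2-cell calls of Tcl1 were each lost without replicate A, without replicate B and with edgeR, and the 2-cell call also with a pseudocount of 0.1 and with quantile normalization. In fits of a stage alone 5 of 6 members passed in zygotes and 4 of 5 in 2-cell embryos. Tcl1b4, given without a test in 2-cell embryos, had a difference of 1.61.

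In 4-cell embryos the light side held more of the family in each gradient. On the heavy side the gradients A to C held 184, 395 and 389 CPM of the family, and on the light side 1037, 769 and 639. Tcl1b5 was at 0, 0.0335 and 0.0133 CPM on the heavy side and 15.03, 31.7 and 37.2 on the light side (difference -4.74, SE 0.62, limma adjusted p 8.01e-07). Tcl1b2 and Tcl1b3 passed toward the light side too, at -2.42 (adjusted p 0.0411) and -2.15 (adjusted p 0.0403), which made 3 of 5 members tested, against 12.9% of genes. Their gradients did not all agree: Tcl1b2 held 0.349, 20.2 and 16.4 CPM on the heavy side and 185, 17.2 and 21.3 on the light side, with the widest gap in gradient A. Both calls were lost without replicate A, without replicate B, with a pseudocount of 0.1 and with edgeR, that of Tcl1b3 also without replicate C, and that of Tcl1b2 also with quantile normalization and with the gradient as a replicate block. In a fit of 4-cell embryos alone 0 of 5 passed, and the limma adjusted p of Tcl1b5 was 0.207. Tcl1, at a difference of -1.22 (adjusted p 0.0501), passed with the block, with quantile normalization, without ribosomal RNA and without replicate C, and Tcl1b1 passed without replicate C. In 8-cell embryos 1 of 6 members passed toward the light side, against 6.62% of genes. This was Tcl1b4, at 0, 14.5 and 7.40 CPM on the heavy side and 27.9, 52.7 and 20.6 on the light side (difference -2.67, SE 0.77, limma adjusted p 0.0197), a call lost without replicate A, without replicate C, with edgeR and in a fit of 8-cell embryos alone. Tcl1 passed there with fractions 8 to 10 against 1 to 3 and without replicate C.

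In morulae and blastocysts 0 of 6 members passed limma's test of the sides, against 5.81% and 2.74% of genes in either direction. None had an unadjusted p under 0.05 at either stage, and edgeR called 1 member in morulae, Tcl1b1, and 0 in blastocysts.

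**Figure D3:**
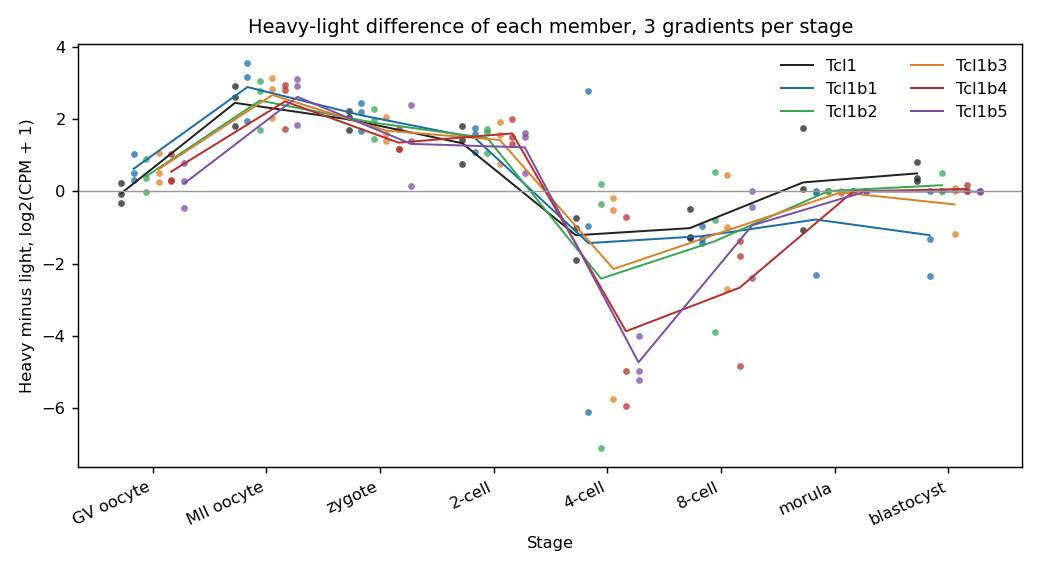
Heavy minus light level of each gene, as a difference of log2(CPM + 1), over the 8 stages; points are gradients (3 per stage) and lines join stage means. The GV means lie between -0.05 and 0.63, the points of MII oocytes, zygotes and 2-cell embryos are above 0 for all 6 genes, and most points of 4-cell embryos are below 0.

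The change of this heavy-light difference between neighbouring stages was tested in its own right. From GV to MII oocytes it was 1.95 to 2.51 for the 6 genes, and 0 of 6 passed limma's test, against 0.185% of genes in either direction, with 2 unadjusted p-values under 0.05. Tcl1 had the largest of these changes (2.51, SE 0.62, limma adjusted p 0.103) and passed with the gradient as a replicate block, with fractions 8 to 10 against 1 to 3 and without replicate C. In a fit of GV and MII oocytes alone 5 of 6 passed, all but Tcl1b4, with adjusted p-values of 0.00254 for Tcl1 and 0.0129 to 0.0488 for the other 4. From MII oocytes to zygotes 0 of 6 passed, against 0.0198% of genes, and from zygotes to 2-cell embryos 0 of 5, against 4.65%. Neither step had an unadjusted p under 0.05. From 4-cell to 8-cell embryos 1 of 5 passed upward, against 1.98% of genes: Tcl1b5, by 3.80 (SE 0.87, limma adjusted p 0.0121), lost without replicate B, without replicate C and in a fit of those stages alone. In 8-cell gradients A to C Tcl1b5 held 0, 4.83 and 0.0131 CPM on the heavy side and 4.28, 6.92 and 0 on the light side, so this change rests on very low levels. The later steps gave 0 of 6 each, against 0.534% of genes from 8-cell embryos to morulae, with 2 unadjusted p-values under 0.05, and 0.0198% from morulae to blastocysts, with 0. As a description, the difference moved by -2.55 to -5.96 from 2-cell to 4-cell embryos.

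On the heavy side itself the calls over the first steps depended on the fit. From GV to MII oocytes 0 of 6 members passed limma's test, against 4.06% of genes, and from MII oocytes to zygotes 0 of 6, against 1.49%. None of these had an unadjusted p under 0.05. With edgeR 0 passed at either step. In a fit of GV and MII oocytes alone Tcl1b3 (change -1.29, limma adjusted p 0.00382) and Tcl1b4 (-1.16, adjusted p 0.0134) passed downward, and in that of MII oocytes and zygotes 0 of 6 passed. Tcl1b3 held 1220, 945 and 1730 CPM in GV gradients A to C and 498, 573 and 479 in the MII gradients. These groups did not overlap, and neither did those of Tcl1b1, Tcl1b4 and Tcl1b5, with the MII gradients lower in each case.

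From zygotes to 2-cell embryos the heavy side gained these transcripts, with 4 of 5 tested members higher, against 5.10% of genes. The light side gained them too. The mean of the family's sum went from 2677 to 19131 CPM on the light side and from 10463 to 50528 on the heavy side. The tests here reuse the 2-cell values of the step used in choosing the family. Tcl1 rose from 5849, 8261 and 7647 CPM in gradients A to C to 22074, 34279 and 19883 (change 1.78, SE 0.31, limma adjusted p 0.000284). Tcl1b1 rose from 1117, 1542 and 1943 CPM to 12745, 14159 and 12712 (change 3.14, SE 0.98, adjusted p 0.0262), Tcl1b3 by 2.92 (adjusted p 0.0333) and Tcl1b5 by 2.96 (adjusted p 0.000949). Tcl1b2 had a change of 2.44 (adjusted p 0.0721) and passed without replicate A, with quantile normalization, with fractions 8 to 10 as the heavy side and in a fit of those stages alone. The calls of Tcl1b1 and Tcl1b3 were lost without replicate B, without replicate C, with a pseudocount of 0.1 and with fractions 8 to 10 as the heavy side, that of Tcl1b1 also with quantile normalization, and edgeR called Tcl1 alone. Tcl1b4, as a description, went from 434, 379 and 543 CPM to 4888, 4556 and 3421. For all 6 genes each 2-cell gradient lay above each zygote gradient.

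This gain exceeded the change in the transcriptome for some members. The difference between the heavy-side change and the transcriptome change was positive from zygotes to 2-cell embryos and passed for 3 of 5 tested members, against 1.58% of genes: Tcl1 by 1.41 (SE 0.36, limma adjusted p 0.00260), Tcl1b1 by 2.56 (adjusted p 0.0285) and Tcl1b5 by 1.81 (adjusted p 0.00793). The median of all genes was -0.89 in this comparison and 0.04 after quantile normalization, under which Tcl1 had 0.85 and Tcl1b1 1.74, both no longer past the test, and Tcl1b5 2.09. Fractions 8 to 10 as the heavy side also ended the calls of Tcl1 and Tcl1b1, a pseudocount of 0.1 those of Tcl1b1 and Tcl1b5, and the call of Tcl1b1 was lost without replicate B, without replicate C and without replicate D. At the earlier step from GV to MII oocytes all 6 had a lower change on the heavy side than in the transcriptome, and 1 of 6 passed, against 1.27% of genes. This was Tcl1b4, by -2.13 (SE 0.59, limma adjusted p 0.0142), with 1699, 954 and 1946 CPM on the heavy side in GV gradients and 551, 615 and 834 in MII gradients while its transcriptome share rose 1.97-fold by ratio of means. That call was lost without replicate C, without replicate D, with a pseudocount of 0.1 and with fractions 8 to 10. The other 5 had differences of -0.98 to -2.15, and in a fit of those stages alone Tcl1b1, Tcl1b3 and Tcl1b5 passed too. Lower levels in MII gradients were not particular to the heavy side. The mean of the family's sum went from 16302 to 2901 CPM on the light side and from 19037 to 16845 on the heavy side. That of Tcl1b4 went from 1031 to 136 CPM on the light side and from 1533 to 667 on the heavy side. From MII oocytes to zygotes 0 of 6 passed, against 2.28% of genes, with 0 unadjusted p-values under 0.05, while in a fit of those stages alone Tcl1b1 and Tcl1b2 passed. From zygotes to 2-cell embryos such a fit and that without replicate A also called Tcl1b2 and Tcl1b3.

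From 2-cell to 4-cell embryos, the step used in choosing the family, the heavy side changed by -6.72 to -12.05, while 22.3% of 14524 genes passed downward there. Tcl1b4 went from 4888, 4556 and 3421 CPM in gradients A to C to 0, 0.00903 and 0, which is at most 1 read on the heavy side of a gradient, at least 10250-fold lower against a floor of 3 reads in each fraction library. Tcl1b5 went from 691, 904 and 795 CPM to at most 3 reads, at least 1904-fold lower. Tcl1 kept 183, 258 and 268 CPM, 107-fold lower than before, and Tcl1b1, Tcl1b2 and Tcl1b3 were 286-fold, 313-fold and 108-fold lower by their means. The members' falls at this step ran from 107-fold to past the floor on the heavy side and from 723-fold to 1066-fold in the transcriptome. Tcl1b4 was chosen for its fall here, so its place at the low end follows from the choice. In 4-cell embryos Tcl1b4 and Tcl1b5 had 0 reads in 24 and 22 of the 30 fraction libraries. Whether the members differed in their falls was not tested. The heavy-side change minus the transcriptome change was 3.07 for Tcl1 and -2.74 for Tcl1b4, given without a test.

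**Figure D4:**
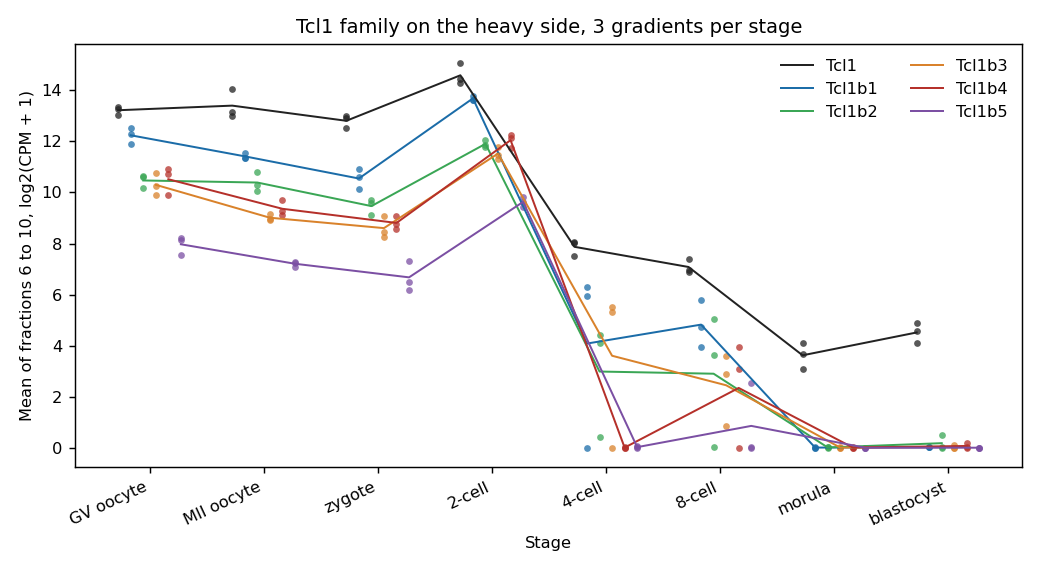
Mean of fractions 6 to 10 for each gene, as log2(CPM + 1), over the 8 stages; points are gradients (3 per stage) and lines join stage means. The heavy-side levels are highest in 2-cell embryos, Tcl1b4 and Tcl1b5 are at or next to 0 in 4-cell embryos, and Tcl1 alone stays clear of 0 in all gradients of morulae and blastocysts.

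From 4-cell to 8-cell embryos 0 of 5 tested members passed limma's test on the heavy side, against 6.54% of genes, with 1 unadjusted p under 0.05 and 0 calls by edgeR. From 8-cell embryos to morulae 3 of 6 fell, against 2.56% of genes. Tcl1 fell from 123, 116 and 169 CPM to 16.4, 11.8 and 7.38 (change -3.46, SE 0.31, limma adjusted p 1.82e-07). Tcl1b1 fell from 14.5, 25.3 and 54.6 CPM to at most 2 reads per gradient, at least 391-fold lower (change -4.82, adjusted p 0.00308), and Tcl1b4 from 0, 14.5 and 7.40 CPM to at most 2 reads (change -2.33, adjusted p 0.0325). The calls of Tcl1b1 and Tcl1b4 were lost without replicate B and without replicate C, and that of Tcl1b4 also with fractions 8 to 10. Tcl1b2 passed with the replicate block, a pseudocount of 0.1, quantile normalization and without replicate A, Tcl1b3 passed with that pseudocount and without replicate A, and edgeR called all 6. From morulae to blastocysts 0 of 6 passed, against 0.0757% of genes, with 1 unadjusted p under 0.05 and 0 calls by edgeR.

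The falls from 8-cell embryos to morulae on the heavy side went beyond the transcriptome for 3 of 6 members, against 2.48% of genes. The heavy-side change minus the transcriptome change was -3.34 for Tcl1 (SE 0.36, limma adjusted p 3.03e-09), -4.42 for Tcl1b1 (adjusted p 0.000917) and -2.67 for Tcl1b4 (adjusted p 0.00246, lost without replicate B, without replicate C, with fractions 8 to 10 and in a fit of those stages alone). Such falls were not particular to the family: of the 8 genes outside it most like its sum, named below, 7 were called lower, with a median of -3.55. Nor were falls particular to the heavy side. The mean of the family's sum went from 421 to 15.7 CPM on the light side and from 197 to 11.9 on the heavy side. From 4-cell to 8-cell embryos 0 of 5 passed, against 13.7% of genes, with 2 unadjusted p-values under 0.05. From morulae to blastocysts 0 of 6 passed, against 2.20%, with 1.

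Levels in the gradients of 4-cell and 8-cell embryos stood far above those of the matching transcriptomes. The mean over all 10 fractions was 514 to 610 CPM for the family's sum in the 3 gradients of 4-cell embryos, against 22.8 to 37.6 in the 4 transcriptomes, a ratio of means of 18.0. In 8-cell embryos it was 269 to 354 CPM against 10.965 to 15.7, a ratio of 24.9. The median ratio over all genes with a transcriptome mean of at least 1 CPM was 0.852 and 1.03 at these stages. The family's ratio was 2.03 in GV oocytes, 0.534 in MII oocytes, 0.335 in zygotes, 1.22 in 2-cell embryos, 1.52 in morulae and 2.96 in blastocysts. The 7 oocyte markers moved with it, at a ratio of 14.8 in 4-cell embryos and 9.49 in 8-cell embryos, against 1.54 in morulae. Their part in the family's levels in those gradients was not tested. Comparisons of the heavy side with the transcriptome at 4-cell or 8-cell embryos include this gap. Those at earlier steps include such shifts too, as the ratio moved from 2.03 to 0.534 from GV to MII oocytes. From zygotes to 2-cell embryos it moved from 0.335 to 1.22. The part of these shifts in the calls beyond the transcriptome was not tested.

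The reads in those gradients were scattered. In the 30 fraction libraries of 4-cell embryos Tcl1 had 0 reads in 2, and Tcl1b1 to Tcl1b5 had 0 reads in 15, 12, 19, 24 and 22. Fraction 4 of 4-cell gradient A held 2429 CPM of Tcl1 and 0 reads of all 5 Tcl1b genes, while fraction 8 of gradient B held 0 reads of all 6. In GV oocytes, MII oocytes, zygotes and 2-cell embryos 0 of 30 libraries lacked reads of any member. In morulae Tcl1b5 had 0 reads in 30 of 30 libraries and the other Tcl1b genes in 26 to 28, whereas Tcl1 had 0 reads in 3 and at most 48.6 CPM. A value of 0 in an amplified library of little RNA is a limit of detection and not an absence.

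**Figure D5:**
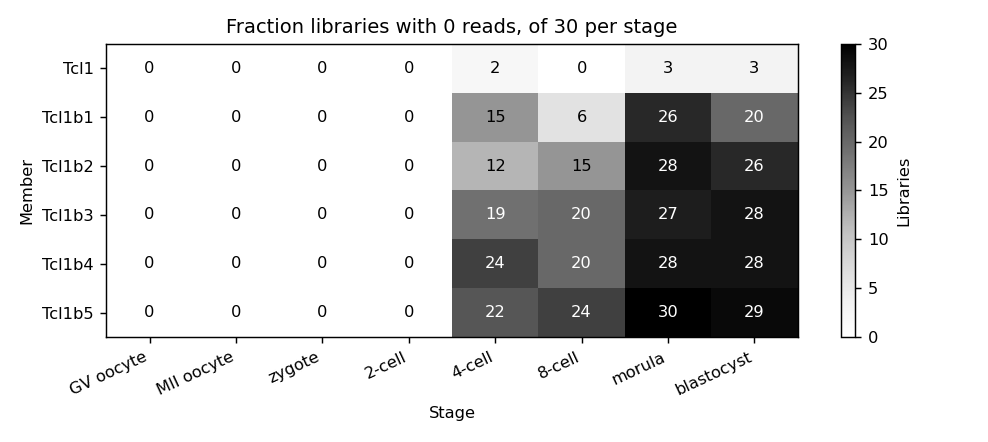
Number of fraction libraries with 0 reads for each gene (rows) at each stage (columns), of 30 libraries per stage; darker cells hold more such libraries. No cell of the first 4 stages is above 0, Tcl1 stays at 3 or fewer, and the 5 Tcl1b genes reach 20 to 30 in morulae and blastocysts.

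The members followed one another closely. Over 88 group means, 8 of transcriptomes and 80 of fractions, Pearson's r of log2(CPM + 1) between pairs of members ran from 0.919 to 0.968. These points share libraries and the large step after the 2-cell stage, so the values describe a common stage pattern. The genes outside the family most like its sum by that measure, among 14388 candidates, were Siah2 (r 0.972), Bcl2l10, C86187, Spin1, Gm1965, Accsl, Trim61 and Btg4. Siah2 encodes a ubiquitin ligase, Bcl2l10 a member of the BCL2 family known from oocytes and Btg4 an adaptor for the deadenylation of maternal transcripts. Their transcriptome means were 1502, 3203 and 11374 CPM in 2-cell embryos and 41.3, 6.61 and 17.9 in 4-cell embryos. All 8 were chosen for this pattern, so their falls are a description.

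Of the 6 nearest measured neighbours on chromosome 12, 2 fell and 3 rose in the transcriptome from 2-cell to 4-cell embryos, where 32.9% and 31.8% of all genes passed in these directions. These are too few genes to set apart from that background. Glrx5, an enzyme of iron-sulphur cluster assembly, fell by 1.73 on the log2 scale (limma adjusted p 1.30e-08), and Bdkrb1, a bradykinin receptor, fell by 2.05 (adjusted p 3.95e-08). Atg2b, which acts in autophagy, rose by 3.08 (adjusted p 2.45e-14), Syne3 by 2.87 and Gskip by 1.44. The median change of the 6 was 1.00, against 0.02 over all genes tested.

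Akt is the known partner of TCL1 proteins, and of 35 listed genes of its pathway 32 were tested in the transcriptome. From 2-cell to 4-cell embryos 11 rose and 11 fell, shares near the 31.8% and 32.9% of all genes, with a median change of -0.42 against 0.02. Akt1 (change -0.16 on the log2 scale, limma adjusted p 0.554) and Akt2 (0.48, limma adjusted p 0.0626) did not pass. Mtcp1, another TCL1-type gene, was not analysed here. The largest falls were those of Pik3r1 (-3.91) and Pik3cd (-3.48), subunits of phosphoinositide 3-kinase, and of the lipid phosphatase Inpp4b (-3.39). The largest rises were those of Bad (4.79), a cell-death factor that Akt phosphorylates, of Mlst8 (3.29), a subunit of mTOR complexes, and of the chaperone Hsp90aa1 (2.74). From GV to MII oocytes 8 of the 32 rose and 5 fell, beside 9.11% and 25.3% of all genes, with a median change of 0.35 against -0.11. Akt1 was among those that rose there, by 1.12 (limma adjusted p 0.000296).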

How the data were processed

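The authors deposited 1 table of CPM values for 15854 symbols and 272 libraries. The submitters' processing notes name Trim Galore 0.6.7, FastQC, HISAT2 2.2.1, featureCounts 2.0.1, edgeR and the build GRCm39. The authors scaled each library to its own total, without regard to length. In 9 columns repeated symbols push the deposited sum past that of a CPM column, and these were recorded as signal, scaled by the authors in the same way. Of 159 symbols in 76 groups with identical values 1 per group was kept, which left 15771.

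Members, lists, rules and tests were chosen with earlier results of these data known. The rule for named genes took all symbols beginning with Tcl1, 4 Akt pathway genes (1 is not reported here) plus up to 3 with the largest called change in each direction between 2-cell and 4-cell transcriptomes, and the 8 genes most like the family's sum. Motifs and neighbours were chosen after members' values were seen.

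limma 3.58.1 (lmFit, eBayes with trend, R 4.3.3) was run on log2(CPM + 1) with all stages in 1 fit, over genes that reached a CPM of 1 in at least the number of samples of the smallest group. A call needed an adjusted p under 0.05 and a change of at least 1. Scripts were tested on simulated data. Alternatives were another pseudocount, no filter, quantile normalization, removal of ribosomal RNA, the compared stages alone, fractions 8 to 10 against 1 to 3, the replicate block and each replicate left out. Fraction numbers carry no other name in the labels, so taking 6 to 10 as heavy is a convention. Deposited CPM were whole multiples of 1 read (100% of values within 0.05 reads, in 271 of 272 libraries), which gave reads for edgeR 4.0.16 and DESeq2 1.42.0. Reads carry no molecular identifiers, so floors of 3 reads cover counting error only. Fraction 7 of 2-cell gradient B was left out of read models. The 2-cell transcriptome columns are lettered differently from the labels (E to H), so the replicate block leaves out their comparisons.

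Heavy and light sides come from the same gradients and are paired by that design. The main tests of the sides, and of the change of their difference, did not use this pairing. They took the sides as separate samples, with stage and side as the only factor. Only the replicate block used the difference within each gradient. Deviations of heavy and light sides of the same gradient correlated at 0.00776 to 0.253, 11 of 24 above 0.1. RefSeq tables (GRCm38.p6) and GENCODE M21 transcripts gave sequences, and no coordinates of the authors' build are printed.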

Additional observations from a re-analysis of the deposited data

Results flagged for a closer look

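In groups of 4 transcriptome pools, 7 of 56 combinations of stage and member (or sum) had 1 pool far from the other 3. Chance alone marks about 1 in 20 such groups. In GV oocytes Tcl1b4 stood at 582 CPM in pool C, against 524 to 531 in the others. In 4-cell embryos Tcl1b3 was at 1.72 CPM in pool D, against 3.98 to 4.13, and in 8-cell embryos the family's sum was at 15.7 CPM in pool B, against 10.965 to 11.7. In morulae Tcl1 was at 2.63 CPM in pool A, against 5.79 to 6.16, Tcl1b3 at 0.796 in pool C, against 0.119 to 0.227, Tcl1b4 at 1.90 in pool B, against 0.272 to 0.405, and Tcl1b5 at 1.11 in pool A, against 0 to 0.149. So 4 of the 7 fell in morulae, at levels of a few CPM or less.

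Effects that differed between stages or between kinds of library by a test of the difference itself were those of the interaction terms. The heavy-light difference of Tcl1b5 changed by 3.80 from 4-cell to 8-cell embryos. Heavy-side changes departed from those of the transcriptome by -2.13 for Tcl1b4 from GV to MII oocytes, by 1.41 for Tcl1, 2.56 for Tcl1b1 and 1.81 for Tcl1b5 from zygotes to 2-cell embryos, and by -3.34 for Tcl1, -4.42 for Tcl1b1 and -2.67 for Tcl1b4 from 8-cell embryos to morulae.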

How the results depend on the processing

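Members that passed the test were counted over all steps. In the transcriptome 13 passed, 12 to 14 with 1 replicate left out, and 19 with edgeR and with DESeq2. The tests on recovered reads called 10440 genes from 2-cell to 4-cell embryos with edgeR and 10498 with DESeq2, against 9485 with limma. On the heavy side 7 passed, and 3 to 11 with 1 replicate left out. Between the sides 9 passed, against 4 with a pseudocount of 0.1, 15 in fits of a stage alone, 3 with edgeR and 2 to 9 with 1 replicate left out. For the change of the heavy-light difference 1 passed, against 5 in fits of the compared stages alone, 2 with fractions 8 to 10 and 1 to 3, and 0 to 1 with 1 replicate left out. For the heavy side beyond the transcriptome 7 passed, against 13 in fits of the compared stages alone, 3 with fractions 8 to 10, and 4 to 14 with 1 replicate left out. The 2-cell value of the sum of the Tcl1 family, 28589 CPM, was 15201.6 CPM without Tcl1. Quantile normalization moved the median change of all genes from zygotes to 2-cell embryos from 0.37 to -0.08 in the transcriptome and from -0.51 to -0.01 on the heavy side. The cause of these differences was not tested. No value that passed changed its direction under any alternative run, and 67 values that did not pass changed sign without passing.

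The replicate block gave 2 calls in place of 1 for the change of the heavy-light difference, 8 in place of 7 on the heavy side and 10 in place of 9 between the sides, and changed neither the 6 transcriptome calls nor the 4 calls beyond the transcriptome that it could include. Deviations of pools and gradients with the same letter at different stages correlated at -0.18 to 0.20 in transcriptomes (7 of 84 pairs above 0.1) and at -0.11 to 0.10 on the heavy side (1 of 84). The labels do not say that a letter links libraries across stages, and weak correlations cannot settle whether it does. Depth limits the low values and the light side of GV oocytes. The smallest fraction library, fraction 1 of GV gradient A, held 10243 reads. After the 2-cell stage many Tcl1b values rest on 0 to 3 reads.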
